A study of Mus musculus with 24 samples.

Results

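The transcriptomes of heart and lung taken from the same 6 septic mice were compared, 6 hearts against 6 lungs, which are 12 of the 24 samples of the series. All mice were male C57BL/6 animals aged 7 to 12 weeks that underwent cecal ligation and puncture (CLP), a surgical model in which leakage of gut bacteria causes peritonitis and sepsis. The sample titles and the study's methods give CLP, while the source label of these organs names thioglycollate-induced peritonitis, and CLP was taken as the model. Of the 6 mice, 3 received β-nicotinamide mononucleotide (β-NMN), a precursor of the coenzyme NAD+, intraperitoneally at 185 mg/kg, and 3 received the saline vehicle. A β-NMN heart titled replicate 3, a number that another heart also carries, is called replicate 2 here after the lung with the same mouse tag. Both organs were collected 24 h after CLP, and RNA was made from a small piece of each. Each mouse gave 1 heart and 1 lung library, so that the organ difference was taken within mice, with both treatments pooled and the mouse as a block. Which part of the heart was sampled is not stated. There was no heart or lung of a sham-operated mouse among these libraries, so the difference between septic heart and septic lung cannot be told apart from the difference that the organs have without sepsis.

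Heart muscle contracts continuously and takes most of its energy from the oxidation of fatty acids in densely packed mitochondria. The lung is a surface for gas exchange, lined by thin alveolar type 1 cells and surfactant-making type 2 cells and reached through airways with secretory and ciliated cells, and it holds large numbers of resident and passing leukocytes. In sepsis both organs are reached by bacterial products and cytokines in the blood, and heart and lung failure are frequent complications.

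Libraries held 27319513 to 68523239 counts in hearts and 8915366 to 28356786 in lungs, the lowest being the lung of vehicle replicate 2. Levels are given as TMM-scaled CPM, the reads of a gene scaled to a common library size, as the lowest and highest of the 6 libraries with their median. Of 54658 gene symbols, 16525 had enough counts to be tested. At an adjusted p below 0.05, in the edgeR quasi-likelihood test with the mouse as block, 4887 genes (29.6%) were higher in heart and 5697 (34.5%) were higher in lung. A difference of at least 2 on the log2 scale in addition was met by 1573 genes (9.52%) in heart and 2384 (14.4%) in lung. All 6 hearts were above all 6 lungs for 3617 genes (21.9%) and below them for 3777 (22.9%). The split between directions depended on scaling: with total counts in place of TMM factors, 2534 genes were higher in heart and 8390 in lung, as the median log2 difference of all genes moved from −0.08 to −0.72. Group medians below are therefore to be read against −0.08. Group counts of calls are to be read against 29.6% of all genes in heart and 34.5% in lung. Log2 differences are heart over lung throughout.

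The composition of the RNA differed before any gene was considered. Transcripts of mitochondrially encoded genes made up 19.8% ± 3.80 of counts in hearts (SD, n = 6, range 12.9 to 22.7%) and 0.616% ± 0.128 in lungs (0.407 to 0.757%), with every heart above every lung (exact sign-flip permutation test over 6 mice, two-sided p = 0.03125, the smallest this design allows). The 10 most abundant genes took 24.4% ± 3.83 of heart counts and 11.8% ± 1.89 of lung counts (exact permutation p = 0.03125). Without the mitochondrially encoded genes these shares were 11.8% and 11.9% (exact permutation p = 0.969), and no difference was detected in how far nuclear transcripts were concentrated in a few genes.

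Marker genes matched the organ labels. The group of 27 contractile genes summed to 69779 to 117498 CPM in hearts and 671 to 1582 CPM in lungs, whereas the 14 alveolar type 2 genes summed to 112 to 141 CPM in hearts and 21439 to 37412 CPM in lungs. Both libraries of vehicle replicate 2 stood apart from the others of their organ: the SD of their log2 differences from the remaining libraries of the organ was 0.977 for the heart and 1.52 for the lung, against 0.366 to 0.580 for the other 10 libraries. Without that mouse, 6439 genes (38.2%) were higher in heart and 6598 (39.1%) in lung, of 16863 tested. Where group counts changed without it, they are given beside the group or in the closing section. Liver transcripts were a second exception: the summed level of 15 hepatocyte genes, a group added after the data were seen, was 471 and 823 CPM in the hearts of vehicle replicate 1 and β-NMN replicate 1, 9.67 to 96.1 CPM in the other 4 hearts and 13.0 to 67.7 CPM in lungs. In hearts albumin (Alb) was at 47.8, 0.208 and 3.29 CPM in vehicle replicates 1 to 3 and 74.6, 0.906 and 13.3 CPM in β-NMN replicates 1 to 3, with the same 2 hearts highest. Skeletal muscle, thymus and cartilage genes were low in both organs, with 7 of 20 tested and summed levels of at most 19.6 CPM.

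Promoter sequences of 6 genes are shown because these genes were among the most one-sided or most abundant of each organ and because heart and lung promoters differed in composition. They are the 250 bases before the start of the gene in RefSeq, on build GRCm38.p6, read 5′ to 3′ on the strand of the gene. Capitals mark matches, on either strand, to the MEF2 and CArG elements, which bind the muscle regulators MEF2 and SRF, to AGATAA, which GATA factors bind, and to TATAAA, the TATA box. MEF2 elements can overlap the other motifs, which none of those printed does. Ttn encodes titin, the giant spring of the sarcomere (chr2:76982548-76982797, minus strand), Actc1 cardiac α-actin (chr2:114052876-114053125, minus strand, 673 bases from the GENCODE start) and Acta1 skeletal α-actin (chr8:123894776-123895025, minus strand, 24 bases from the GENCODE start). Cxcl15 encodes lungkine, a chemokine of the lung epithelium (chr5:90794284-90794533, plus strand), Cldn18 a tight junction claudin of alveolar cells (chr9:99717268-99717517, minus strand) and Bpifa1 a secreted airway defence protein (chr2:154142630-154142879, plus strand).
Ttn: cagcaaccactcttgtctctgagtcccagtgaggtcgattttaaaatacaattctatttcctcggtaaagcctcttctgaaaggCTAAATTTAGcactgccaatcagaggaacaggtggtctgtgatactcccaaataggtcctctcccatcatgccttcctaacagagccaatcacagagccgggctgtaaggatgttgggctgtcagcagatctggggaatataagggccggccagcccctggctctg
Actc1: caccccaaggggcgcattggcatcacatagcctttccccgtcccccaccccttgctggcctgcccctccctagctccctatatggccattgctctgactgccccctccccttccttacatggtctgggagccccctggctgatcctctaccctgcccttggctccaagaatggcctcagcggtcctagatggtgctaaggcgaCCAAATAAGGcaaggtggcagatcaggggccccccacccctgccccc
Acta1: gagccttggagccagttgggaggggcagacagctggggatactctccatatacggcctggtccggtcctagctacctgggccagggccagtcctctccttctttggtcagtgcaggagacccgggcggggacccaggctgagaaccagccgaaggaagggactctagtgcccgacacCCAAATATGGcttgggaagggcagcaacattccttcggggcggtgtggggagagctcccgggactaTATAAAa
Cxcl15: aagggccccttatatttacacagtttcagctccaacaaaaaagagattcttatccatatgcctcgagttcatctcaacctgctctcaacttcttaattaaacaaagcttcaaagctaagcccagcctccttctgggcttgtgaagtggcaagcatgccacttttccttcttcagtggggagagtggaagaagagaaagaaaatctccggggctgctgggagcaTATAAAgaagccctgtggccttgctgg
Cldn18: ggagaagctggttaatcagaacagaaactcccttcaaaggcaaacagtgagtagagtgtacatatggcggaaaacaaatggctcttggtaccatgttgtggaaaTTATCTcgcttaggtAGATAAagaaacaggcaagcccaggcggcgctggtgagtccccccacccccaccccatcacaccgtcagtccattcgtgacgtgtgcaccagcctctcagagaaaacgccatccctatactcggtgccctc
Bpifa1: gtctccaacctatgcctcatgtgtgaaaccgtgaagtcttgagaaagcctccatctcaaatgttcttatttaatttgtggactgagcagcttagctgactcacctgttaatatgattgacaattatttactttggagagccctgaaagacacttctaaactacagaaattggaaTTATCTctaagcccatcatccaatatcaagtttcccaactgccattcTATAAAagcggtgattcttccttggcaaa

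Of the 3 heart promoters, Ttn held a MEF2 element 166 bases before the start, Actc1 a CArG element 47 bases before it and Acta1 a CArG element 73 bases before it and a TATA box 7 bases before it. Among the lung promoters, Cxcl15 and Bpifa1 held a TATA box 27 and 29 bases before the start, and GATA matches lay 131 and 146 bases before the start of Cldn18 and 76 before that of Bpifa1. Over all 11927 tested genes with a RefSeq promoter, 1.80% held a MEF2 element, compared with 5.21% of 1075 genes at least 2 log2 units higher in heart and 1.42% of 1551 genes at least 2 log2 units higher in lung. CArG elements were in 1.17% of all promoters, 1.77% of the same heart set and 1.29% of the lung set. They were in 5 of the 23 contractile promoters (21.7%). The 107 promoters of the fuel and respiratory chain groups held neither a MEF2 nor a CArG element. GATA was in 6.20% of all promoters, 8.37% of the heart set and 7.87% of the lung set, TATAAA in 7.24%, 10.3% and 11%, and the forkhead motif TGTTTAC in 2.27%, 2.05% and 3.03%. The median number of CpG dinucleotides was 15 in all promoters, 11 in the heart set, 7 in the lung set, 4 in the contractile group and 14 in the fuel and respiratory chain groups. These shares describe the letters of the windows and carry no test, since the sets were chosen by the organ difference itself.

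Contractile genes were among the groups with the largest differences towards heart. Of 27, 23 were higher in heart and none in lung, where 29.6% and 34.5% of all genes were called, with a median of 7.73. Cardiac α-myosin heavy chain (Myh6) reached 22019.8 to 42519 CPM (median 38047) in hearts and 16.4 to 102 CPM (median 63.8) in lungs, a difference of 9.43 (SE 0.57, adjusted p = 3.02e-06). Troponin T (Tnnt2) was at 8786 to 12606 CPM (median 11831) in hearts and 23.6 to 189.9 CPM (median 64.1) in lungs. Titin (Ttn) was at 2188 to 3816 CPM (median 2994) in hearts and 1.39 to 6.54 CPM (median 4.69) in lungs. No heart overlapped a lung for these genes, and the same held for the myosin-binding protein Mybpc3 (10.48), α-actinin 2 (Actn2, 8.73), the Xin repeat proteins Xirp1 (9.42) and Xirp2 (10.17) and the stress-responsive ankyrin repeat protein Ankrd1 (5.53). Per kilobase of exon, α-myosin (Myh6) was at 5392 CPM and the slow β-myosin (Myh7) at 23.0 CPM in hearts. The 4 contractile genes without a call were the atrial light chains Myl4 and Myl7, the atrial Mybphl and nebulette (Nebl), which was at 207 to 270.2 CPM (median 217) in hearts and 129 to 339 CPM (median 158) in lungs and was called higher in heart without vehicle replicate 2 (0.70, adjusted p = 0.000746).

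Of the 24 calcium-handling and ion channel genes, 22 were higher in heart and none in lung, with a median of 5.77. The calcium pump of the sarcoplasmic reticulum (Atp2a2) was at 16112 to 21540.2 CPM (median 20866) in hearts and 71.3 to 188 CPM (median 149) in lungs. Its inhibitor phospholamban (Pln) was at 178 to 1107 CPM (median 925) in hearts and 1.63 to 5.95 CPM (median 2.42) in lungs. The lowest Pln value among hearts was that of vehicle replicate 2, which was still above every lung. The ryanodine receptor Ryr2 (8.19), calsequestrin 2 (Casq2, 8.92), the histidine-rich calcium binding protein Hrc (8.97) and the potassium channel subunit Kcnd2 (8.29) were among the most one-sided. The inward rectifier Kcnj2, whose lowest heart overlapped the lungs, differed by only 1.71 (SE 0.32). Sarcolipin (Sln) and connexin 40 (Gja5), both atrial genes, had no call.

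All 16 tested heart factors were higher in heart, with a median of 4.88. Nkx2-5 was at 87.1 to 132 CPM (median 96.3) in hearts and 0 to 0.218 CPM (median 0.0718) in lungs, Gata4 at 112 against 0.429 CPM and Tbx20 at 98.1 against 0.106 CPM (medians). The ventricular factor Irx4 had no read in any lung, which puts it at least 2018-fold higher in heart. Regulators of oxidative metabolism were on the same side, with Esrrb at 9.43, Esrrg at 4.88, Ppara at 4.51 and the coactivator Ppargc1a at 4.88. Of 19 lung factors, 18 were higher in lung, with a median of −6.60. Nkx2-1, the master regulator of lung epithelium, had no read in any heart and 106 to 199.9 CPM (median 164) in lungs, at least 13443-fold higher in lung. Foxa1 (3 reads over all hearts and 39.8 CPM in the median lung), Foxa2 (−9.13), the mesenchymal Foxf1 (−6.19) and Tbx4 (−8.32) followed. Sox9 was the exception, at 1.72 to 14.6 CPM (median 4.83) in hearts and 0.422 to 16.9 CPM (median 1.19) in lungs, and was called higher in heart (1.60, adjusted p = 0.0125) although the ranges overlapped. Tbx5, which both organs need in development, differed by 1.57.

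Chamber genes differed between hearts as well as between organs. All 5 ventricular genes were higher in heart, with a median of 11.15 (10.98 with Irx4 at its bound), and the regulatory light chain Myl2 (chr5:122100951-122113472, GRCm38, plus strand) had the largest difference towards heart among genes that averaged 5 log2 CPM or more there, at 14.16 (SE 0.44, adjusted p = 3.6e-07). Its level was 1061 to 5711 CPM (median 4671) in hearts and 0.110 to 0.416 CPM (median 0.209) in lungs. Of 7 tested atrial genes 2 were higher in heart and 0 in lung, the former share near the 29.6% of all genes. These 2 were atrial natriuretic peptide (Nppa) and the potassium channel Kcnj3, and the group median was 0.85. In hearts the atrial regulatory light chain Myl7 was at 6.34, 2589.9 and 238 CPM in vehicle replicates 1 to 3 and 53.7, 20.5 and 0.172 CPM in β-NMN replicates 1 to 3. In lungs it was at 7.75 to 99.8 CPM (median 23.0), so that lungs lay inside the range of the hearts, and the median lung was above 3 of them. In hearts the atrial essential light chain Myl4 was at 10.5, 3329.9 and 296 CPM in vehicle replicates 1 to 3 and 60.6, 26.4 and 1.53 CPM in β-NMN replicates 1 to 3, and in lungs it was at 9.69 to 162 CPM (median 33.4).

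Because both light chains were counted in the same library, their ratio does not depend on scaling. Myl7 made up 95.9 to 99.9% of the Myl7 and Myl2 reads in every lung, on 226 to 907 reads a library (the widest 95% Wilson interval being 92.8 to 97.7%). In hearts the share was 0.148% in vehicle replicate 1, 70.9% in vehicle replicate 2, 5.09% in vehicle replicate 3 and 0.974%, 0.358% and 0.00352% in β-NMN replicates 1 to 3. Every lung was above every heart (exact sign-flip permutation test, two-sided p = 0.03125). The share of Myl4 in Myl4 and Myl3 reads behaved alike, with 91.5 to 97.3% in lungs and 0.0296 to 74.5% in hearts. Of each atrial and ventricular pair of light chains, lungs thus held mostly reads of the atrial form, and Myh6, which both chambers use, was at 63.8 CPM in the median lung. The atrial Sln, Gja5 and Mybphl likewise had no call between the organs, with Sln at 2.59 to 22.8 CPM (median 9.64) in lungs, whereas Nppa was at no more than 2.43 CPM and Bmp10 had no read in any lung. The regulatory light chain of smooth muscle, Myl9, which is outside these ratios, was at 18.1 to 34.5 CPM (median 29.9) in lungs, close to the median of Myl7. The walls of mouse pulmonary veins are known to contain cardiac muscle; its part in these values was not tested. Intervals here cover counting error only.

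**Figure D1:**
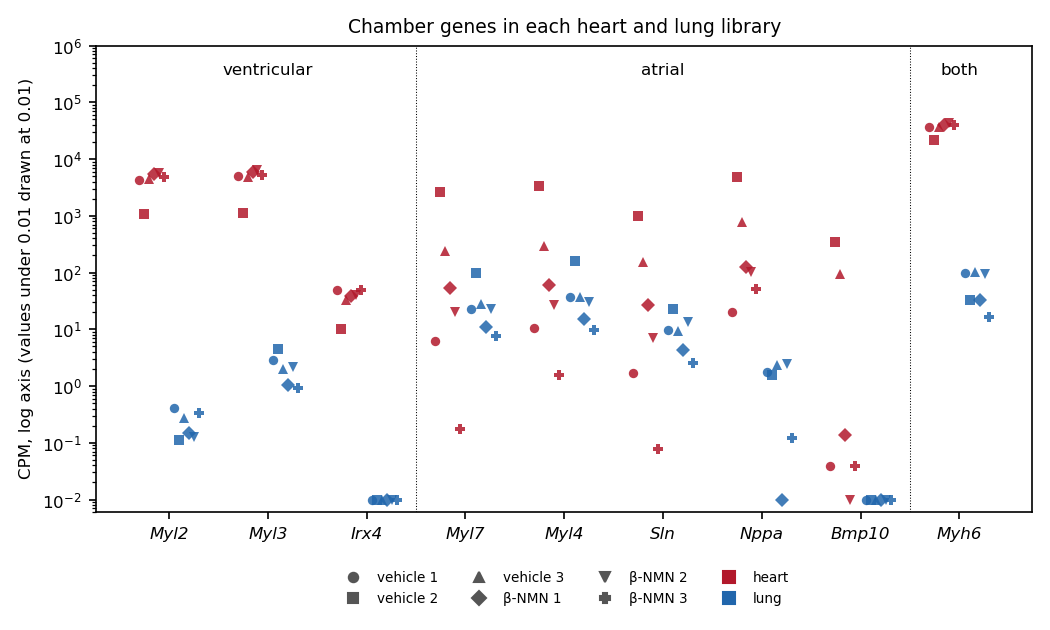
CPM on a log axis of 3 ventricular genes, 5 atrial genes and Myh6 in each of the 6 hearts (red) and 6 lungs (blue), 1 symbol per mouse, with values under 0.01 drawn at 0.01. Hearts are above lungs for Myl2, Myl3, Irx4 and Myh6, whereas Myl7, Myl4 and Sln of lungs fall within the spread of the hearts, in which vehicle replicate 2 (squares) is highest.

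The heart of vehicle replicate 2 carried the atrial signal in other genes as well. Nppa was at 4918 CPM there and at 20.4 to 769 CPM in the other hearts. Sln was at 986 CPM against a median of 16.8 CPM, the growth factor Bmp10, made by atrial muscle, at 343 CPM and Mybphl at 252 CPM. The same library had the lowest Myl2, Myl3 and Irx4 of the hearts. The heart of vehicle replicate 3 was next, with Bmp10 at 94.9 CPM. Mesothelial and lymphocyte genes were also highest in the heart of vehicle replicate 2, with summed levels of 159.5 CPM and 108 CPM; the other hearts had at most 21.9 and 8.73 CPM. The share of chambers in the sampled pieces was not measured, and its part in the organ difference of this mouse was not tested.

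Genes of lung epithelium had the largest differences of the comparison. All 14 type 2 genes were higher in lung, with a median of −11.06. Surfactant protein C (Sftpc, chr14:70520949-70524081, plus strand) was at 11532 to 24854 CPM (median 12765) in lungs and 0 to 0.307 CPM (median 0.101) in hearts. The other surfactant proteins Sftpa1 (−14.41), Sftpb (−12.13) and Sftpd (−15.78), the lysosomal protein Lamp3 (−13.22) and the phosphate transporter Slc34a2 (−14.03) were at a median of at most 0.693 CPM in hearts. The lipid transporter Abca3, which loads surfactant into lamellar bodies, was the only type 2 gene whose organs overlapped, because the lung of vehicle replicate 2 was at 10.5 CPM while the other lungs were at 190.2 CPM or more. Of 10 type 1 genes, 9 were higher in lung. The receptor Ager was at 2862 to 5302 CPM (median 3377) in lungs and 0.398 to 1.62 CPM (median 0.510) in hearts, and Cldn18 had no read in any heart, at least 44428-fold higher in lung. Clic5, an intracellular chloride channel, did not pass the test, with 314 to 652 CPM (median 480.1) in hearts and 100.2 to 759.8 CPM (median 484) in lungs (95% interval of the difference −0.41 to 0.85).

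Airway genes followed the same pattern. Of 14 tested secretory genes 12 were higher in lung, with a median of −8.60 (−7.77 with the 3 genes that had no heart read at their bound). Club cell secretoglobin (Scgb1a1, chr19:9083636-9087958, minus strand) was the most abundant lung transcript per kilobase among the genes described, at 24191 to 50541 CPM (median 40386) in lungs and 0 to 0.958 CPM (median 0.206) in hearts. The detoxifying cytochrome Cyp2f2 was at 879 to 2287 CPM (median 1805) in lungs and 0.0362 to 0.324 CPM (median 0.147) in hearts. Other members varied far more between lungs, with Scgb3a1 at 34.8 to 1721 CPM, the mucin Muc5b at 19.7 to 538 CPM and Bpifa1 at 5.79 to 614 CPM. Bpifa1 and Tff2 had no read in any heart and were at least 18993-fold and 741-fold higher in lung. The antimicrobial lectin Reg3g (−5.40, adjusted p = 0.05002) and the goblet cell gene Clca1 (−3.97, adjusted p = 0.0686) did not pass, although each did with some mouse left out. All 18 genes of cilia were higher in lung, with a median of −6.38 (−5.87 with Mcidas, which had no heart read, at its bound). Among them were Ccdc153, with 2 reads over all hearts and 132 CPM in the median lung, the ciliary master factor Foxj1 (−11.70) and the dynein heavy chain Dnah5 (−10.44). The smallest difference among them was that of Rfx3 (−1.02), a factor that other cells also use.

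Of the 10 largest fitted differences towards lung, among genes that averaged 5 log2 CPM or more in that organ, 7 were those of Scgb1a1, Cldn18, Sftpc, Scgb3a2, Bpifa1, Cxcl15 and Sftpd of the epithelial groups, and the eighth was Nkx2-1. The remaining ones were Sec14l3, a lipid-binding protein of airway epithelium, at 956 to 3450.4 CPM (median 1219) in lungs with 1 read over all hearts, and Scnn1g, the γ subunit of the epithelial sodium channel that clears alveolar fluid, with no heart read and 93.9 to 138 CPM (median 138) in lungs. The 10 largest fitted differences towards heart were those of Myl2, Irx4, Lrtm1 (12.60), Mov10l1 (1 read over all lungs and 39.3 CPM in the median heart), the kinase Alpk2 (11.38), Acta1 (11.26), Myl3 (11.15), myotilin (Myot, 56.4 CPM in the median heart and 0.0151 in the median lung), Pirt (2 reads over all lungs and 27.8 CPM in the median heart) and myoglobin (Mb, 10.62). Where an organ had no read or few, as for Irx4, Nkx2-1 and Scnn1g, the place in this order rests on a fitted value and not on a measured ratio. Myoglobin, which stores oxygen in muscle, was at 3196 to 8494 CPM (median 6884) in hearts and 1.48 to 9.27 CPM (median 4.99) in lungs. Acta1 reads can be shared with the near-identical Actc1, since how reads with several positions were handled is not stated; this holds also for Myh6 and Myh7.

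**Figure D2:**
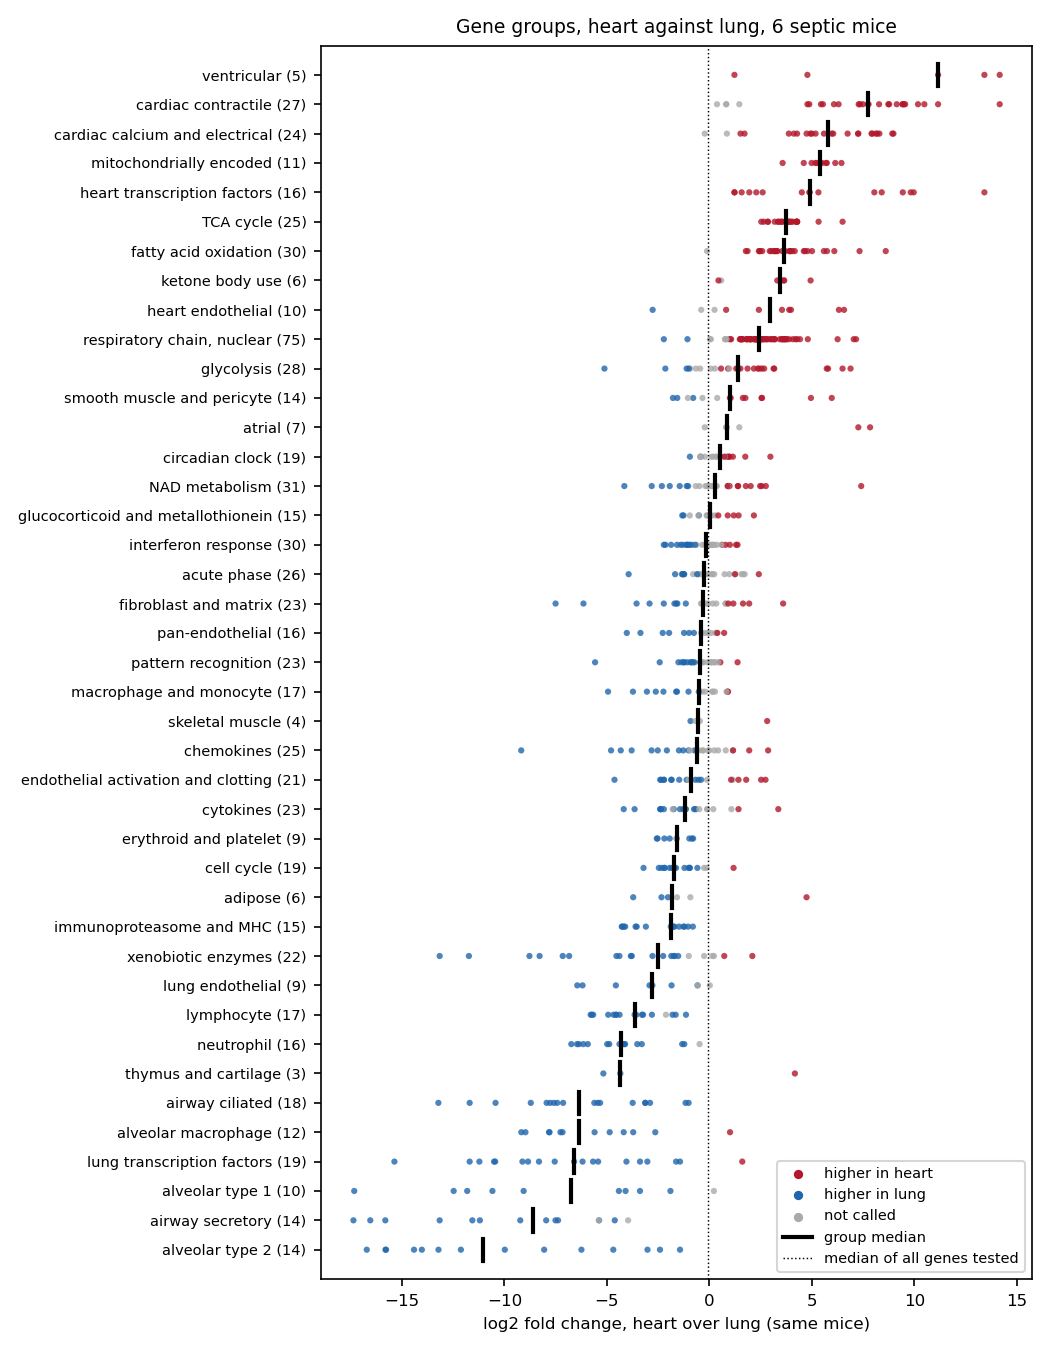
Log2 difference, heart over lung, of every tested member of the 41 gene groups (points), with the group median (black bar) and the median of all genes tested (dotted line, −0.08). The number of tested members is given in brackets, red and blue points passed the test, and groups run from alveolar type 2 (median −11.06) to ventricular genes (11.15).

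Many proteins have paired forms of which one is used more in heart or muscle, and 22 such pairs were compared as the log2 ratio of reads within a library. All 22 ratios were higher in heart on average. For 21 pairs this held in 6 of 6 mice. For phosphoglycerate mutase (Pgam2 over Pgam1) it held in 5 of 6 mice, the exception being vehicle replicate 2. In the lung library of that replicate Pgam1 was at 0.551 CPM, against a lung median of 17.7 CPM.

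The largest shift was in mitochondrial creatine kinase, which passes phosphate energy out of mitochondria: the log2 ratio of Ckmt2 to Ckmt1 was 12.17 ± 1.37 in hearts (mean ± SD, n = 6) and −3.29 ± 1.04 in lungs. The cytosolic pair Ckm and Ckb shifted by 9.66 and glycogen phosphorylase Pygm and Pygl by 10.49. Cytochrome c oxidase, the last enzyme of the respiratory chain, shifted in 4 of its subunits, by 7.32 for Cox6a2 over Cox6a1, 6.98 for Cox8b over Cox8a, 5.27 for Cox7a1 over Cox7a2 and 4.36 for Cox4i1 over Cox4i2, a pair in which Cox4i1 was the larger in lungs as well. Ribosomal protein Rpl3l shifted by 10.21 against Rpl3, and elongation factor Eef1a2 by 10.07 against Eef1a1. Per kilobase of exon, Rpl3l was at 198 and Rpl3 at 69.2 CPM in hearts, whereas lungs had 0.491 CPM of Rpl3l and 202 CPM of Rpl3. The smallest shift was that of lactate dehydrogenase, Ldhb over Ldha, at 1.62 (1.39 to 2.02 in the 6 mice).

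**Figure D3:**
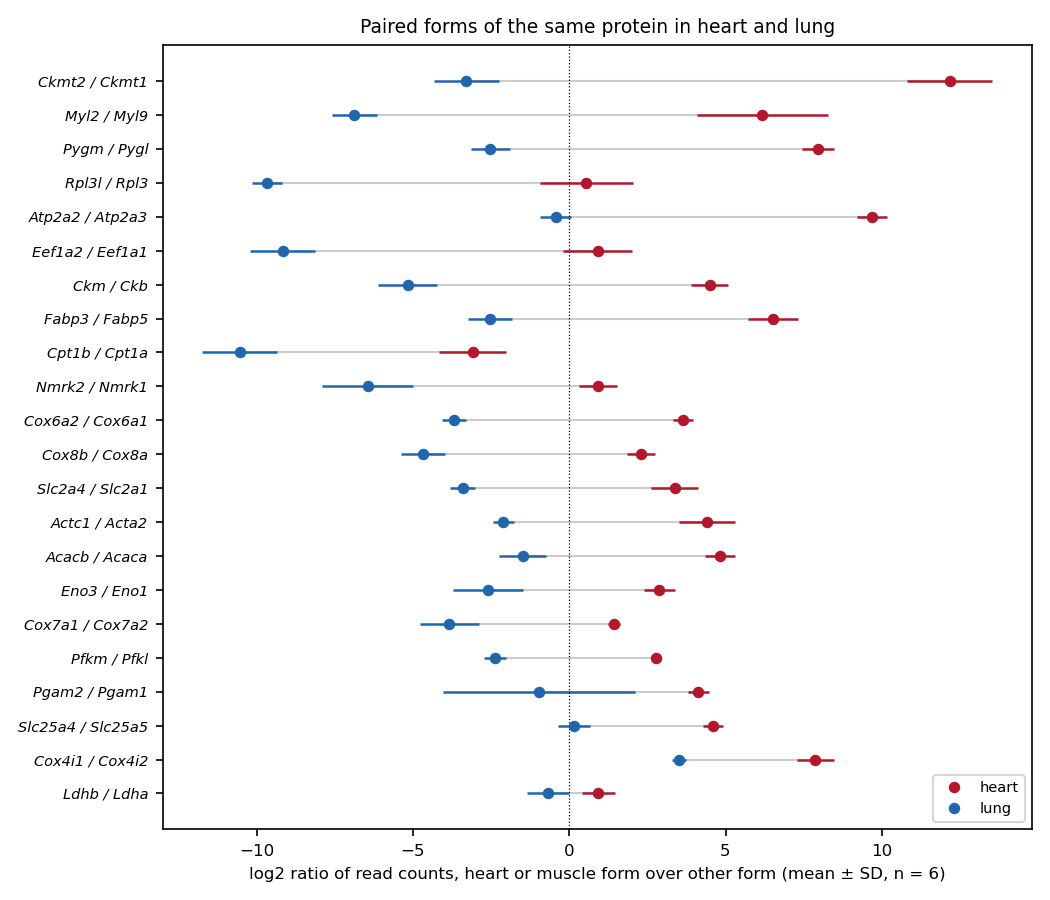
Log2 ratio of read counts of the heart or muscle form over the other form for 22 pairs, mean ± SD of the 6 hearts (red) and of the 6 lungs (blue). The heart mean lies to the right of the lung mean for all 22 pairs, by 1.62 for Ldhb over Ldha up to 15.46 for Ckmt2 over Ckmt1.

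Fuel genes were higher in heart almost without exception. Of 30 genes of fatty acid uptake and oxidation 29 were higher in heart, with a median of 3.62, and all 25 genes of the tricarboxylic acid (TCA) cycle were, with a median of 3.73. The trifunctional protein subunit Hadha was at 798 to 2409 CPM (median 2014) in hearts and 52.0 to 152 CPM (median 130.3) in lungs. The fatty acid carrier Fabp3 was at 739 to 3115 CPM (median 2507) in hearts and 3.05 to 10.5 CPM (median 5.57) in lungs, and lipoprotein lipase (Lpl), which releases fatty acids from blood lipids, at 3652 to 10552 CPM (median 9535) in hearts and 307 to 2639 CPM (median 511) in lungs. Pyruvate dehydrogenase kinase Pdk4, which holds back glucose oxidation, differed by 6.09 (SE 0.24, adjusted p = 4.94e-07). The exception was Cpt1a, the liver form of the gate for mitochondrial fatty acid entry, at 62.2 to 197 CPM (median 86.4) in hearts and 69.0 to 139 CPM (median 112) in lungs, which was called higher in lung without vehicle replicate 2 (−0.29, adjusted p = 0.0197). The muscle form Cpt1b was counted at only 5.51 to 19.5 CPM (median 11.5) in hearts; 81.4% of its exon bases also belong to another annotated gene, so its level is uncertain. Within the TCA cycle citrate synthase (Cs) differed by 4.28 and the aspartate aminotransferase Got1 by 6.49.

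Ketone use, the respiratory chain and glycolysis pointed the same way to different degrees. Over all genes 29.6% were called higher in heart and 34.5% in lung (38.2% and 39.1% without vehicle replicate 2). For ketone bodies 5 of 6 genes were higher in heart, among them Oxct1 (3.62) and Bdh1 (4.93). Of 75 nuclear genes of the respiratory chain and ATP synthase 67 were higher in heart and 2 in lung, with a median of 2.41, and 72 and 2 without vehicle replicate 2. ATP synthase β (Atp5b) was at 4097 to 7431 CPM (median 6836) in hearts and 175 to 447 CPM (median 399) in lungs. The 2 genes higher in lung were the lung form Cox4i2 (−2.23) and the ubiquitous form Cox6a1 (−1.07). Of 28 glycolysis genes 18 were higher in heart and 4 in lung, with a median of 1.40. The insulin-sensitive glucose transporter Slc2a4 (6.88), Pgam2 (6.49), Eno3 (5.79) and Pfkm (5.72) led in heart, while Aldoc (−5.12), the regulatory kinases Pfkfb3 (−1.12) and Pfkfb4 (−2.15) and the lactate exporter Slc16a3 (−1.01) were higher in lung.

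The heart of vehicle replicate 2 was the lowest for these groups. Its fatty acid oxidation genes summed to 16779 CPM, against 34534 to 40492 CPM in the other hearts and at most 3912 CPM in lungs. The nuclear respiratory chain summed to 28180.1 CPM there and to at most 11357 CPM in lungs. Hearts and lungs therefore did not overlap for any of these sums.

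**Figure D4:**
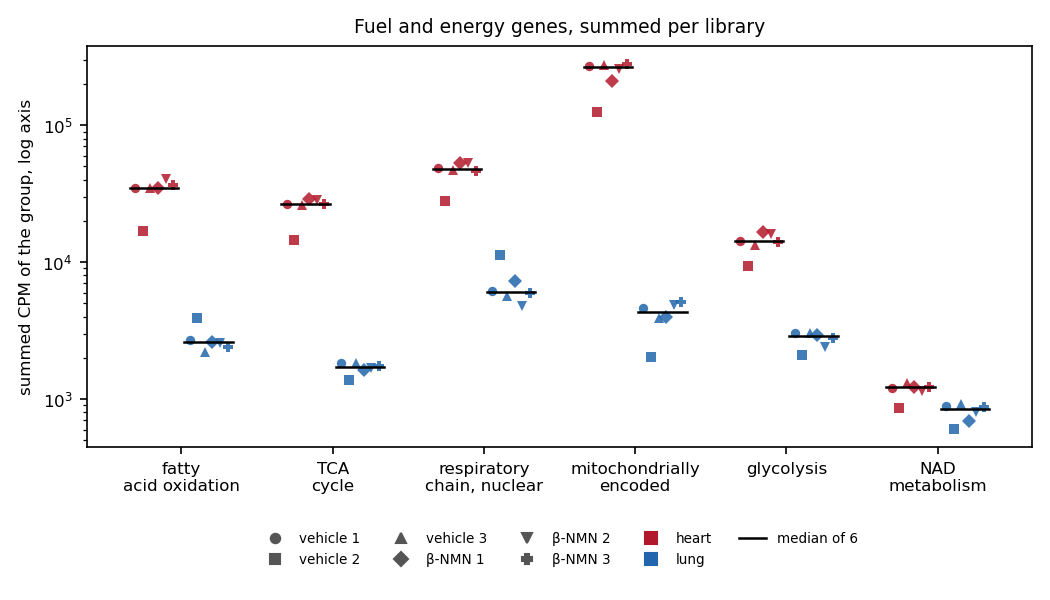
Summed CPM, on a log axis, of 6 gene groups in each heart (red) and lung (blue), 1 symbol per mouse, with the median of 6 as a bar. Hearts lie above all lungs for the first 5 groups, whereas the NAD metabolism sums overlap (862.7 to 1314 CPM in hearts and 603.7 to 922.4 CPM in lungs), with vehicle replicate 2 (squares) the lowest heart.

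Mitochondrially encoded genes were all higher in heart, 11 of 11 tested, with a median of 5.41. Cytochrome c oxidase subunit 1 (mt-Co1) was at 46754 to 120640 CPM (median 111291) in hearts and 143 to 1926 CPM (median 1557) in lungs, and cytochrome b (mt-Cytb) at 24049 to 48880 CPM (median 46201) in hearts and 280.2 to 1082 CPM (median 965) in lungs. The 13 protein genes fell into 2 sets. The adjacent genes mt-Co2, mt-Atp8, mt-Atp6, mt-Co3, mt-Nd3 and mt-Nd4l had at most 3.30 CPM in every library, while the other 7 had at least 4562 CPM in every heart. Of the 6 low genes, 5 have a copy on chromosome 1 whose annotated sequence is 99.7 to 100% identical over nearly the whole gene, and these copies had at most 8.47 CPM. The exception was mt-Atp8, with 43.6% identity. In mt-Nd4, 876 bases are also identical to such a copy, and its level was 7613 to 17280 CPM (median 16054) in hearts. How reads with several positions were counted is not stated, so the levels of the 6 low genes cannot be compared with those of the other 7.

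NAD metabolism is the pathway that β-NMN feeds. Of 31 tested genes 12 were higher in heart and 7 in lung, against 29.6% and 34.5% of all genes, with a median of 0.25. With total counts 7 were higher in heart and 13 in lung, with a median of −0.38. In the salvage pathway Nampt, its rate-limiting enzyme, was at 162 to 319 CPM (median 291) in hearts and 74.5 to 139 CPM (median 106) in lungs. The nicotinamide riboside kinase Nmrk2 was at 3.67 to 13.6 CPM (median 9.20) in hearts and 0 to 0.195 CPM (median 0.0151) in lungs. Of the enzymes that turn NMN into NAD+, Nmnat1 (2.47) and the mitochondrial Nmnat3 (2.75) were higher in heart and Nmnat2 (−2.82) in lung. The proposed NMN transporter Slc12a8 was low in both organs, at 0.832 to 2.70 CPM in hearts and 0 to 0.646 CPM in lungs. Among NAD consumers, Parp1 (0.98), Sirt2 (0.94), Sirt4 (0.88) and the mitochondrial Sirt5 (2.01) were higher in heart and Bst1 (−1.45) and Sirt7 (−1.04) in lung. With total counts Parp1 (0.35), Sirt2 (0.29) and Sirt4 (0.23) lost their calls. The NAD glycohydrolase Cd38 did not pass, at 18.7 to 37.5 CPM (median 30.6) in hearts and 19.2 to 37.5 CPM (median 23.8) in lungs. Of enzymes on the way from tryptophan to NAD, Kynu (−4.15), Haao (−2.32) and Tdo2 (−1.94) were higher in lung, while Ido1 did not pass (−0.67, adjusted p = 0.136).

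Endothelial genes common to all vessels were called in both directions, while those that mark organ capillaries were mostly higher in their own organ. In bulk tissue, fewer cells of a type and less RNA per cell cannot be told apart. Of 16 pan-endothelial genes 2 were higher in heart and 7 in lung (4 and 10 without vehicle replicate 2), against 29.6% and 34.5% of all genes (38.2% and 39.1% without that mouse), with a median of −0.40. The adhesion molecule Cdh5 was at 227 to 382 CPM (median 297) in hearts and 132 to 503 CPM (median 320.4) in lungs. The junction protein Cldn5 (−4.03), Ramp2 (−2.28) and Calcrl (−3.37) were higher in lung, and Emcn (0.72, but 0.08 and no call with total counts) and Robo4 (0.39, but −0.24 with total counts) in heart. Of 9 genes of lung capillaries 7 were higher in lung, led by periaxin (Prx, −6.45) and Sema3c (−4.57). Angiotensin-converting enzyme (Ace), which lung capillaries are known for, was at 164 to 1079.7 CPM (median 909) in lungs and 84.4 to 107 CPM (median 100.4) in hearts. Of 10 genes of heart capillaries 7 were higher in heart, led by Aqp7 (6.57), Tcf15 (6.32), the fatty acid carrier Fabp4 (3.98) and Lpl, which muscle cells also make, whereas Rgcc was higher in lung (−2.77).

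Stromal genes were called in both directions, as genes were over the whole table (29.6% in heart and 34.5% in lung). Of 14 smooth muscle and pericyte genes 8 were higher in heart and 3 in lung, with a median of 1.02. With total counts 6 were higher in heart and 5 in lung, with a median of 0.38 beside −0.72 for all genes. The pericyte gene Rgs5 was at 194 to 788 CPM (median 678) in hearts and 13.4 to 23.0 CPM (median 18.1) in lungs, and the potassium channel pair Abcc9 (5.96) and Kcnj8 (2.56) was on the same side. Smooth muscle actin Acta2 was higher in heart (1.75) and myosin light chain kinase Mylk in lung (−1.57). Tagln, usually abundant in smooth muscle, was at no more than 1.28 CPM in any library, and 62.4% of its exon bases also belong to another annotated gene. Of 23 fibroblast and matrix genes 5 were higher in heart and 9 in lung (7 and 12 without vehicle replicate 2). Decorin (Dcn, 1.64), lumican (Lum, 3.59) and Fbln1 (1.94) were higher in heart. Elastin (Eln, −1.57), the basement membrane ligand nephronectin (Npnt, −6.15) and the methyltransferase Inmt (−7.51), a gene of lung fibroblasts, were higher in lung. The main fibrillar collagen Col1a1 was at 179 to 359.8 CPM (median 254) in hearts and 90.7 to 377 CPM (median 255) in lungs and did not pass (95% interval −0.58 to 0.90).

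In each of 3 myeloid groups more than 34.5% of the tested members, the share over all genes, were called higher in lung. Of 12 alveolar macrophage genes 11 were higher in lung, with a median of −6.39. The chitinase-like protein Chil3 was at 374 to 795 CPM (median 633) in lungs and 1.42 to 8.40 CPM (median 2.07) in hearts, and the exception was Pparg (1.00, but 0.37 and no call with total counts), which muscle and fat also express. Of 17 macrophage and monocyte genes 9 were higher in lung, among them lysozyme 2 (Lyz2), at 807 to 4148 CPM (median 3531) in lungs and 92.8 to 386 CPM (median 231) in hearts, Ccr2 (−3.05) and Ly6c2 (−4.95) of inflammatory monocytes, and 2 were higher in heart, Adgre1 (0.88) and the haemoglobin scavenger receptor Cd163 (0.90), which were at 0.24 and 0.25 without a call with total counts. The complement genes C1qb and C1qc of resident macrophages did not pass in either direction (−0.21 and 0.17). Of 16 tested neutrophil genes 15 were higher in lung, with a median of −4.30. The alarmin S100a8 was at 427 to 1032 CPM (median 708) in lungs and 5.04 to 13.1 CPM (median 6.03) in hearts. Granule genes Ltf (−6.15), Camp (−6.46) and Ngp (−4.99) and the receptor Cxcr2 (−4.39) went with it, whereas the formyl peptide receptor Fpr1 was at 7.20 to 12.5 CPM (median 9.99) in hearts and 3.08 to 25.4 CPM (median 16.1) in lungs and missed the threshold, which it passed without vehicle replicate 2 (−0.71).

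Lymphocyte genes were low in both organs, with sums of 50.8 to 91.0 CPM in lungs and at most 8.73 CPM in 5 hearts, while the heart of vehicle replicate 2 had the highest sum of all, 108 CPM. Of 17 tested, 16 were higher in lung, with Cd2 (−5.80) and the granzyme Gzma (−5.74) differing most. Haemoglobin and platelet genes, which come with blood, were higher in lung for 8 of 9 tested, with Hba-a1 at 441 to 4357 CPM (median 626) in lungs and 70.6 to 263 CPM (median 111) in hearts. Reads of the globin copies cannot be separated with certainty. The contribution of blood left in the vessels to the leukocyte genes was not tested.

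All 15 genes of antigen presentation were higher in lung, with a median of −1.89. Of the class II genes H2-Aa was at 110.5 to 159 CPM (median 122) in lungs and 4.18 to 20.1 CPM (median 5.53) in hearts, while the class I gene H2-K1 was at 529.7 to 971 CPM (median 876) in lungs and 215 to 374 CPM (median 231) in hearts. The invariant chain Cd74 (−3.61), the class II transactivator Ciita (−3.10) and the immunoproteasome subunits Psmb8 (−1.89) and Psmb9 (−1.73) were also higher in lung.

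Cytokine genes were mostly low. Of 23 tested, 13 were higher in lung and 2 in heart, against 34.5% and 29.6% of all genes. Il1b was at 4.64 to 11.9 CPM (median 9.03) in lungs and 0.697 to 3.18 CPM (median 1.55) in hearts, without overlap, and Il18 (−4.18), Csf2 (−3.65) and the B cell factor Tnfsf13b (−2.37) also lay towards lung. Interleukin 15 (Il15), which muscle makes, was at 6.69 to 27.0 CPM (median 19.9) in hearts and 1.10 to 2.12 CPM (median 1.90) in lungs, and the macrophage growth factor Csf1 was higher in heart as well (1.42, but 0.75 and no call with total counts). Tnf did not pass, at 1.30 to 2.21 CPM (median 1.64) in hearts and 0.998 to 2.79 CPM (median 1.99) in lungs (95% interval −0.69 to 0.48). Of 25 tested chemokines 11 were higher in lung and 3 in heart (15 and 2 with total counts). Epithelial Cxcl17 (−9.18), Ccl17 (−4.80), Ccl22 (−4.33) and the T cell attractant Ccl5 (−3.80) were higher in lung. The stromal chemokine Cxcl12 was at 186 to 308 CPM (median 249.9) in hearts and 45.9 to 106 CPM (median 63.5) in lungs, and Cxcl9 (2.86) and monocyte-attracting Ccl2 (1.15) were on its side with overlapping ranges, Ccl2 without a call with total counts (0.49). The neutrophil chemokines Cxcl1 (1.15, adjusted p = 0.0747) and Cxcl2 (−0.07, adjusted p = 0.845) did not pass. Cxcl1 reached 58.3 CPM in a heart from a lowest value of 1.81 CPM, a spread between mice far above the organ difference.

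Acute phase genes were abundant in both organs. Of 26, 2 were higher in heart and 7 in lung (7 and 11 without vehicle replicate 2), against 29.6% and 34.5% of all genes (38.2% and 39.1% without that mouse). Leucine-rich glycoprotein Lrg1 was at 527 to 2139 CPM (median 1302) in hearts and 115 to 348 CPM (median 238) in lungs, whereas haptoglobin (Hp), which binds free haemoglobin, was at 932 to 2803 CPM (median 1530.2) in lungs and 30.0 to 455 CPM (median 109.8) in hearts. Serum amyloid Saa3 was at 324 to 7857 CPM (median 1569) in lungs and 268 to 2026 CPM (median 531) in hearts, and was called higher in lung (−1.32, adjusted p = 0.00407) with overlapping ranges. Lipocalin Lcn2 was at 266 to 2181 CPM (median 516) in hearts and 314 to 1708 CPM (median 1138) in lungs and did not pass (−0.54, adjusted p = 0.0667, and −0.59, adjusted p = 0.00628, without vehicle replicate 2). The fibrinogen genes Fga, Fgb and Fgg, which are made mainly by liver, reached 136, 123 and 105 CPM in the heart of β-NMN replicate 1, which also had the highest albumin. They had no call with all mice and were called higher in heart without vehicle replicate 2 (2.52 for Fga, adjusted p = 0.0448), as were 10 of 14 tested hepatocyte genes.

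Interferon-induced genes did not follow a single direction. Of 30, 5 were higher in heart and 12 in lung, the latter share near the 34.5% of all genes, with a median of −0.18. With total counts 2 were higher in heart and 14 in lung, with a median of −0.82 beside −0.72 for all genes. Ifit3 (−1.87), Oas3 (−2.23), Ifi47 (−2.15), Bst2 (−1.58) and the regulator Irf1 (−1.29) were higher in lung. Rsad2, also known as viperin, was at 19.3 to 77.0 CPM (median 50.5) in hearts and 11.7 to 39.6 CPM (median 18.8) in lungs and higher in heart (1.30). Iigp1, a GTPase against intracellular pathogens, was the only member with all hearts above all lungs, at 57.3 to 109 CPM (median 74.3) in hearts and 15.5 to 48.5 CPM (median 37.1) in lungs. Ifit2 was called higher in heart (0.62) but was at −0.01 with total counts. Mx1 and Stat2 were at −0.01 and 0.06 and did not pass.

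**Figure D5:**
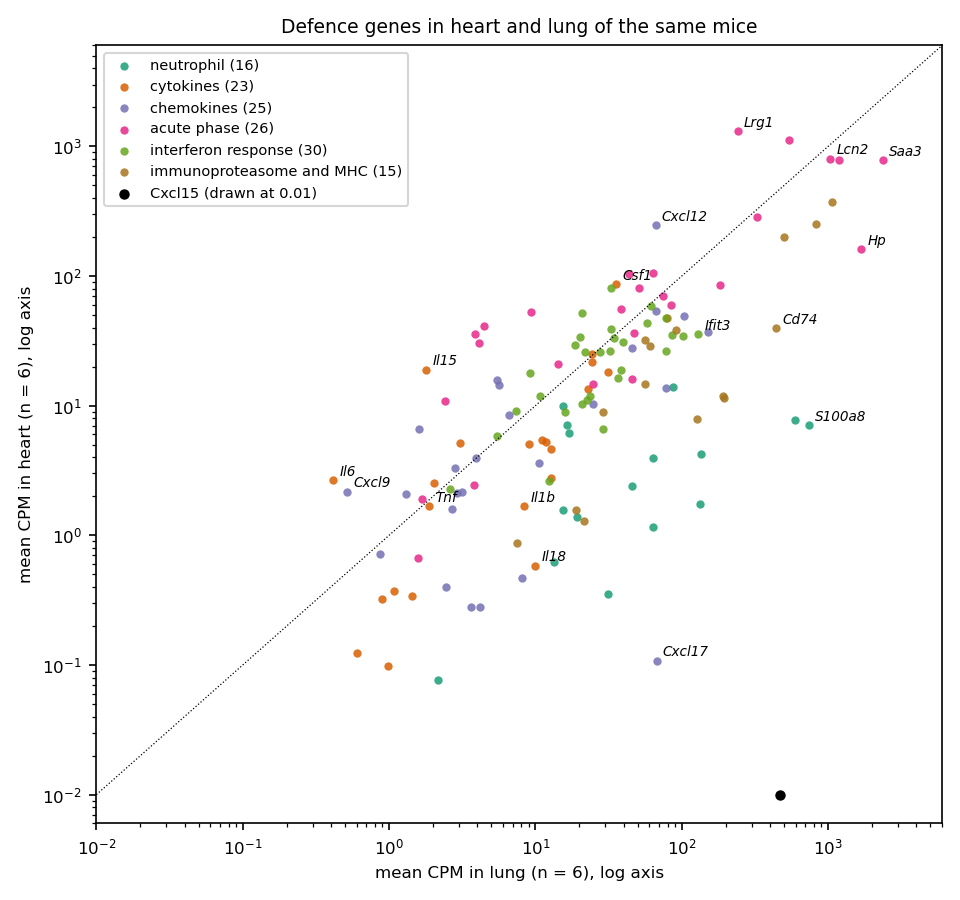
Mean CPM in heart against mean CPM in lung (n = 6 each), both on log axes, of the tested members of 6 immune gene groups, with equal levels as a dotted line and Cxcl15 drawn in black at 0.01 CPM in heart. Antigen presentation genes lie below the line (15 of 15 higher in lung) and so do the 15 neutrophil genes, of 16, that passed, whereas Il15, Csf1, Cxcl12 and Lrg1 lie above it.

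Vessel activation and clotting genes were called in both directions. Of 21, 5 were higher in heart and 12 in lung (2 and 13 with total counts), against 29.6% and 34.5% of all genes. Intercellular adhesion molecule Icam1 was at 45.3 to 471 CPM (median 388) in lungs and 34.9 to 129 CPM (median 60.9) in hearts, with the lung of vehicle replicate 2 the lowest at 45.3 CPM. Tissue factor (F3, −1.48), which starts clotting, thrombomodulin (Thbd, −1.12) and endothelin (Edn1, −2.40) were higher in lung. Tissue factor pathway inhibitor (Tfpi) was at 68.1 to 98.1 CPM (median 87.1) in hearts and 8.92 to 16.3 CPM (median 13.3) in lungs. Inducible and endothelial nitric oxide synthase, Nos2 (1.79) and Nos3 (1.06), and E-selectin (Sele, 2.52) were on the heart side, and none of the 3 was called with total counts (1.14, 0.41 and 1.83). Among 23 pattern recognition genes 12 were higher in lung and 2 in heart, to be read against the same shares of all genes. The receptor for endotoxin, Tlr4, was at 15.8 to 30.0 CPM (median 25.1) in hearts and 6.54 to 11.5 CPM (median 9.31) in lungs. The receptor for flagellin, Tlr5 (−2.43), the fungal receptor Clec7a (−5.58), the inflammasome adaptor Pycard (−1.26) and gasdermin D (Gsdmd, −1.36) were higher in lung. The adaptor Ticam1 was higher in heart (0.53, adjusted p = 0.0406, but −0.11 with total counts).

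Stress hormone targets and clock genes were nearer to equal. Of 15 glucocorticoid and metallothionein genes 5 were higher in heart and 3 in lung, against 29.6% and 34.5% of all genes, with a median of 0.05. With total counts 2 were higher in heart and 8 in lung, with a median of −0.58. In lungs metallothionein Mt1 was at 290.2, 5240.4 and 189.8 CPM in vehicle replicates 1 to 3 and 178, 64.2 and 154 CPM in β-NMN replicates 1 to 3, and in hearts it was at 789 to 2441 CPM (median 1082), so that without the lung of vehicle replicate 2 all hearts were above all lungs (2.78 without that mouse). The leucine zipper Tsc22d3 (−1.33) was higher in lung and Zbtb16 (1.18) in heart, while Fkbp5 did not pass (0.28, adjusted p = 0.114, and 0.34, adjusted p = 0.0187, without vehicle replicate 2). Of 19 clock genes 8 were higher in heart and 2 in lung, with a median of 0.52, but with total counts 3 were higher in heart and 5 in lung, with a median of −0.11. Both organs of a mouse were taken at the same time point, and Arntl (0.88), Nr1d1 (0.94) and Nr1d2 (0.98) were higher in heart (0.24, 0.30 and 0.35 with total counts, without a call) whereas Per3 (−0.96) and Tef (−0.44) were higher in lung.

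Most cell cycle and xenobiotic enzyme genes were higher in lung. Of 19 tested cell cycle genes 16 were higher in lung, all at low level, with the proliferation marker Mki67 at 7.12 to 14.8 CPM (median 9.34) in lungs and 1.92 to 4.34 CPM (median 2.35) in hearts. The exception was Cenpf (1.17, but 0.53 and no call with total counts), with overlapping ranges. Of 22 xenobiotic enzymes 16 were higher in lung, with a median of −2.52. Cyp2b10 was at 251 to 573 CPM (median 498) in lungs and 0.576 to 2.07 CPM (median 0.947) in hearts, and Fmo2 (−2.78), the main flavin mono-oxygenase of lung, and Aldh1a1 (−4.39) were on the same side. Cyp1b1 was higher in heart (2.09), with 362 CPM in the highest heart and at most 14.5 CPM in lungs, as was Fmo5 (0.72), and both lost their calls with total counts (1.41 and 0.09).

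The organ difference was then taken within each treatment. In vehicle mice 3766 genes (22.8%) were higher in heart and 4138 (25%) in lung, and in β-NMN mice 3717 (22.5%) and 4535 (27.4%). The contractile group had 23 of 27 members higher in heart in each treatment, the TCA cycle group 25 and 25 of 25, the neutrophil group 14 and 15 of 16 higher in lung, and the cytokine group 6 and 15 of 23. No gene passed the test of the difference between treatments in edgeR (0%), while DESeq2 called 10 and limma-voom 4. In edgeR 464 of 16525 genes had an unadjusted p below 0.05, fewer than the 1 in 20 that chance alone gives. These tests rest on 3 mice per treatment. Hearts were above lungs in all vehicle mice and below them in all β-NMN mice for 68 genes (0.411%), and the opposite was the case for 26 (0.157%).

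Among the 68, interleukin 6 (Il6) is described after its values were seen. In hearts it was at 1.29, 9.34 and 5.06 CPM in vehicle replicates 1 to 3 and 0.0463, 0.116 and 0.0766 CPM in β-NMN replicates 1 to 3. In lungs it was at 0.583, 0.771 and 0.408 CPM in vehicle replicates 1 to 3 and 0.146, 0.343 and 0.241 CPM in β-NMN replicates 1 to 3. The heart was above the lung in every vehicle mouse and below it in every β-NMN mouse. The log2 difference was 2.76 (SE 0.58) in vehicle mice, with an adjusted p of 0.00700, and −1.57 (SE 0.70) in β-NMN mice, with an adjusted p of 0.102. The difference between treatments, −4.33 (SE 0.91), had an unadjusted p of 0.00190 and an adjusted p of 0.934 in edgeR and so did not pass.

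At the other end, 5 genes that averaged 5 log2 CPM or more had the narrowest intervals around equality. They were Msl2, Rbm5, Gripap1, Ebna1bp2 and Xrn2, which act in chromatin, splicing, vesicle traffic, ribosome assembly and RNA decay. Rbm5 was at 89.5 to 121 CPM (median 106) in hearts and 89.1 to 117 CPM (median 107) in lungs, and its 95% interval ran from −0.25 to 0.25. Xrn2 was at 33.1 to 44.8 CPM (median 39.0) in hearts and 32.2 to 43.9 CPM (median 38.9) in lungs. For these 5 genes a difference of more than about 0.25 on the log2 scale lay outside the interval at the TMM scaling, whereas with total counts all 5 were called higher in lung, Rbm5 at −0.63.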

How the data were processed

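RNA-seq libraries of 6 hearts and 6 lungs from 6 mice were used, and per the labels the replicates are separate mice. The authors selected poly(A) RNA, mapped the reads to mm10 with STAR (2.7.3a in the submitters' processing notes), counted them per gene with featureCounts 2.0.0 and deposited the raw counts; strand and the treatment of reads with several positions are not given here. From these counts, genes were filtered with filterByExpr, scaled with TMM and tested with the edgeR 4.0.16 quasi-likelihood test in R 4.3.3, with the mouse as block and Benjamini-Hochberg adjustment over 16525 genes. Isoform ratios (log2 of counts plus 0.5) were described by the number of mice. Shares were tested with an exact two-sided sign-flip permutation test over mice, whose smallest p over 6 mice is 0.03125. The pairing comes from the mouse tags. Deviations from the mean of each organ within each treatment correlated between organs of a mouse at r = 0.0501 to 0.161. The block was kept because both libraries come from 1 animal.

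The members, 41 gene lists and 22 isoform pairs were chosen with earlier results of these data known, so list counts, medians and isoform ratios carry no test. Genes named were the most abundant, the most different and the exceptions of each list, the 10 largest differences per direction among genes with at least 5 log2 CPM in the higher organ and the 5 narrowest intervals around 0. Other list members named were chosen after their values were seen, as were the hepatocyte and mesothelial lists and the check of mitochondrial copies. A gene without any read in an organ was set to 3 counts over that organ for a lower bound of its fold. Gene coordinates are from GENCODE M21, where 54000 of 54658 symbols were found once, and promoters from RefSeq on GRCm38.p6.

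The heart and lung comparison was also run on simulated counts of 16525 genes. Differences of 1 log2 unit were planted in 100 genes and of 2 in 100 others, all averaging above 1 CPM. Of these, 23% and 91% were found, with 1 false call. Far fewer genes differed than in the data, and no shift in RNA composition was simulated. The shares found therefore do not carry over to the real comparison, and the false call does not cover its scaling. Alternatives were other scaling factors, filters and tests (DESeq2 1.42.0, limma 3.58.1), no block, thinning to 8915366 counts and leaving out each mouse. Peritoneal cell libraries of the series were not used, and some genes are not reported here.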

Additional observations from a re-analysis of the deposited data

Results flagged for a closer look

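Among 88 sets of 6 libraries of an organ, covering the 41 gene group sums and 3 shares, 32 had 1 library far from the other 5 by Dixon's test, where chance flags about 1 in 20. The library was from vehicle replicate 2 in 31 of them, and the cause was not tested.

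In the heart of vehicle replicate 2 the atrial share of regulatory light chain reads was 70.9% and the summed level of atrial genes 12544 CPM, with ventricular genes at only 2329 CPM, against 9505 to 12352 CPM in the other hearts. Sums of muscle and energy genes were the lowest of the hearts, with 22497 CPM for calcium handling, 16779 CPM for fatty acid oxidation, 1095 CPM for ketone body use, 14454 CPM for the TCA cycle, 28180.1 CPM for the nuclear respiratory chain, 863 CPM for NAD metabolism and 5876 CPM for genes of heart capillaries. Sums of other groups were the highest of the hearts. They were 274 CPM for lung factors, 115 CPM for ciliated cells, 108 CPM for lymphocytes and 126 CPM for adipose genes. They were also 1225 CPM for vessel activation and clotting, 317 CPM for pattern recognition, 126 CPM for the cell cycle, 1401 CPM for xenobiotic enzymes and 1306 CPM for antigen presentation.

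In the lung of vehicle replicate 2 contractile genes summed to 1582 CPM against 671 to 924 CPM in the other lungs, and atrial genes to 315 CPM. The sums of lung factors (3032.5 CPM), alveolar type 1 genes (13857 CPM), heart capillary genes (4354 CPM), red cell and platelet genes (9087 CPM), adipose genes (213 CPM), fatty acid oxidation (3912 CPM) and glucocorticoid targets with metallothioneins (11138 CPM) were also the highest of the lungs. Lung capillary genes (955 CPM), xenobiotic enzymes (3738 CPM) and antigen presentation (2404 CPM) were the lowest. This lung also had the fewest counts.

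The lung of β-NMN replicate 1 had the highest sum of alveolar type 2 genes, 37412 CPM against 21439 to 24343 CPM in the other lungs.

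For Il6 the heart was above the lung in all vehicle mice and below it in all β-NMN mice. The difference between treatments was −4.33 on the log2 scale with an unadjusted p of 0.00190, and it failed the correction over all genes in edgeR (adjusted p = 0.934).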

How the results depend on the processing

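The organ calls depended most on scaling. With total counts in place of TMM factors 2534 genes were higher in heart and 8390 in lung, and the medians of 31 of 43 gene groups moved by more than the spread between mice, among which NAD metabolism (−0.38), glucocorticoid targets (−0.58) and clock genes (−0.11) changed sign. Of the genes named, Robo4 (−0.24), Cox8a (−0.60), Ifit2 (−0.0131), Ticam1 (−0.11), Rbm5 (−0.63) and Ebna1bp2 (−0.62) changed direction with total counts. Another 19 named genes lost their call, all of them higher in heart with TMM, and 9 gained one, Reg3g, Clca1, C1qb, Ido1, Lcn2, Ckb, Msl2, Gripap1 and Xrn2, all towards lung. Without the low-count filter 3926 genes were at least 2 log2 units higher in lung. Under the other 7 settings tried on all mice, 4013 to 5990 genes were higher in heart and 4914 to 7191 in lung, the lowest counts coming from libraries thinned to the lowest total. Leaving out each mouse gave 4330 to 6439 genes higher in heart and 4967 to 6598 in lung.

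Without the replicate block for the mouse, 4841 genes were higher in heart and 5844 in lung, and 8453 genes were called in vehicle mice and 8499 in β-NMN mice, against 7904 and 8252 with it. Without the block Sox9, Adgre1, Ifit2, Mt1 and Tef lost their calls and Reg3g and the 3 fibrinogen genes gained one; no other named gene changed its call. Within treatments, limma-voom called 11954 genes in vehicle mice. Leaving out each mouse gave 5546 to 10656 called genes in vehicle mice and 5278 to 11883 in β-NMN mice, the highest in both cases without vehicle replicate 2 and the lowest in β-NMN mice without β-NMN replicate 3. The difference between treatments had 0 to 1 called genes with each mouse left out, 10 in DESeq2 and 4 in limma-voom, both of the latter chosen after seeing the data.

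Without vehicle replicate 2, 10 named genes passed that had not, namely Nebl, Clca1, Fpr1, Cpt1a, Pgam1, Lcn2, Fkbp5 and the 3 fibrinogen genes, and none was lost. With 16863 genes then tested, some groups had more members tested than with all mice. Calls over all genes rose as well, from 29.6% to 38.2% in heart and from 34.5% to 39.1% in lung. Group counts for genes higher in heart became 24 for contractile, 8 for heart capillary, 3 for macrophage and 6 for ketone genes. They became 6 for vessel activation and 11 for clock genes. For genes higher in lung they became 13 for airway secretory, 8 for lung capillary, 4 for smooth muscle, 17 for neutrophil, 19 for lymphocyte, 9 for red cell and platelet, 4 for adipose, 2 for skeletal muscle, 1 for fatty acid oxidation, 16 for cytokine, 13 for chemokine and 17 for cell cycle genes. Both directions changed, to 19 in heart and 6 in lung for glycolysis, 14 and 9 for NAD metabolism, 6 and 15 for interferon, 3 and 15 for pattern recognition, 6 and 5 for glucocorticoid and 3 and 17 for xenobiotic genes. Leaving out another mouse ended, in at least 1 case each, the calls of Tagln, Adgre1, Cd163, Slc16a3, Slc12a8, Sele, Nos2, Ticam1, Ccl2, Icam1, Per3, Tef, Cenpf and Eef1a1, with adjusted p of 0.0504 to 0.131 and the same direction. Reg3g and Clca1 passed without β-NMN replicate 3 (adjusted p = 0.016 and 0.0324), Reg3g also without β-NMN replicate 1, and Cxcl1 passed when vehicle replicate 1 or the third β-NMN mouse was left out (adjusted p = 0.0197 and 0.0453). The causes were not tested.

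The share of the 10 most abundant genes differed by −0.0498 percentage points (heart minus lung) without the mitochondrially encoded genes. With 5 mice the exact test cannot go below 0.0625, so leave-one-out tests of shares could not pass; all 22 isoform ratios kept their direction on average with each mouse left out and with a pseudocount of 2 counts. The mean differences in percentage points were 18.7 to 20.6 for mitochondrial transcripts and −96.9 to −82.9 for the atrial share of the regulatory light chain. Depth in lungs limits genes with few reads.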

Other observations

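Adipose genes did not share a direction. Of 8, 6 were tested, and 1 was higher in heart and 3 in lung, against 29.6% and 34.5% of all genes, with a median of −1.81. The lipid droplet protein Cidea was at 20.6 to 53.3 CPM (median 45.2) in hearts and 0.811 to 2.31 CPM (median 1.65) in lungs, without overlap, and its log2 difference was 4.74 (edgeR adjusted p = 6.58e-06). The related Cidec was at 16.8 to 30.1 CPM (median 18.9) in lungs and 0.172 to 11.3 CPM (median 1.08) in hearts, again without overlap. Alveolar macrophages also express Cidec, which stood in that gene group too. Adiponectin (Adipoq), which defines fat cells, was at no more than 2.81 CPM in hearts and 4.49 CPM in lungs and did not pass. The adipokine Cfd reached 82.3 CPM in the heart and 184 CPM in the lung of vehicle replicate 2, the highest of each organ, and was called higher in lung (−2.34).

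Reads on the ribosomal RNA locus CT010467.1 made up 0.538% ± 0.494 of counts in hearts and 1.47% ± 0.804 in lungs (SD, n = 6). The share was higher in lung in 5 of 6 mice (exact sign-flip permutation test, two-sided p = 0.0625), the exception being β-NMN replicate 3 with 0.131% in heart and 0.0540% in lung.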
